A study of Mus musculus with 6 samples.

Results

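The autophagy genes examined here were 40 named genes, taken by symbol from a table of 16440 genes, and all 40 were present in it once. Of these, 35 are described here. They were compared between normal myeloid progenitors (MPs) and c-Kit+ progenitors of a mouse acute promyelocytic leukemia (APL), with 3 RNA sequencing libraries in each group, written as MPs and APL progenitors. The normal MPs were Lin-Sca-1-c-Kit+ BM cells of FVB N/J mice, a gate that holds granulocytic, monocytic, erythroid and megakaryocytic precursors together. The APL cells arose in hMRP8-PML/RARα transgenic mice of the same strain, in which a promoter of myeloid cells drives the human fusion protein. They had been labeled with GFP by a retroviral vector, were expanded by transplantation into syngeneic recipients, and were sorted as GFP-labeled, c-Kit+ cells. For the labeling, the paper describes a culture with cytokines and then transplantation into sublethally irradiated recipients. No drug treatment is named for either group. The series describes the 3 libraries of a group as biological replicates. Syngeneic recipients in the transplantation experiments were 6 to 10 weeks old. The age of the mice that gave the normal MPs, and whether the APL libraries came from 1 leukemia or from several, are not given in the sources used here.

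Autophagy is the process by which a cell encloses part of its own cytoplasm in a double membrane, the autophagosome, and delivers it to the lysosome for breakdown. A kinase complex around Ulk1 or Ulk2 starts it, a lipid kinase complex around Becn1 and Pik3c3 marks the site, and Atg9a and Atg2 proteins supply membrane. The Atg conjugation enzymes then modify the growing membrane with small ubiquitin-like proteins, and receptors such as Sqstm1 tie cargo to it. Tfeb and Tfe3 are transcription factors of lysosomal and autophagy genes, and Lamp1 and Lamp2 coat the inner face of the lysosomal membrane. In APL, autophagy is known as one of the routes by which the PML/RARα protein is degraded. Red cell precursors use it to remove mitochondria, in which Bnip3l takes part.

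Values are given in scaled fragments, the authors' estimate of fragments per gene after scaling by a factor of each library, and levels of different genes are compared in FPKM, which is per transcript length. Undoing that factor gave totals between 20608715 and 28382785 fragments per library. The lowest value of the 35 genes was 152 scaled fragments, for Atg10. A gene was called when limma's adjusted p (Benjamini-Hochberg, over the 14595 genes that passed a filter on low values) was under 0.05 and the fold change was over 1.5. All 35 genes passed that filter. Replicates were close, with a median coefficient of variation over these genes of 6.27% in MPs and 5.63% in APL progenitors. MP library 3 stood apart: it was the highest of the MP libraries for 29 of the 35 genes, by a median of 0.14 on the log2 scale over the mean of MP libraries 1 and 2, as it was by 0.12 over all genes tested.

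Of the 35 autophagy genes described, 8 rose and 3 fell in APL progenitors. Those that rose were Atg14, Lamp1, Atg9a, Bnip3, Atg12, Tfeb, Lamp2 and Wipi1, and those that fell were Optn, Atg2b and Atg4b. Over all genes tested, 21.7% were called higher and 24.4% lower, against 22.9% and 8.57% of these genes, so that the share called higher was near the background. In either direction 31.4% of them were called, against 46.1% of all genes. Their median log2 fold change was 0.11, that of all genes −0.10, and 27 of the 35 lay above the median of all genes. With libraries scaled to equal totals and with voom, which also scaled by totals, their median was −0.025 and −0.024. That of all genes was −0.23 in both. The 3 libraries of each group did not overlap for 21 of the 35 (60%), 16 of them higher and 5 lower, whereas 70.9% of all genes were separated in this way, 31.1% higher and 39.8% lower. For each of the 11 called genes the groups did not overlap, the adjusted p was at most 2.9e-04, and the direction and the call held under all 16 other settings and sets of libraries tried for single genes. A two-sided exact permutation test of 1 gene over 3 against 3 libraries cannot give less than p = 0.1, the value it gave for these genes.

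**Figure D1:**
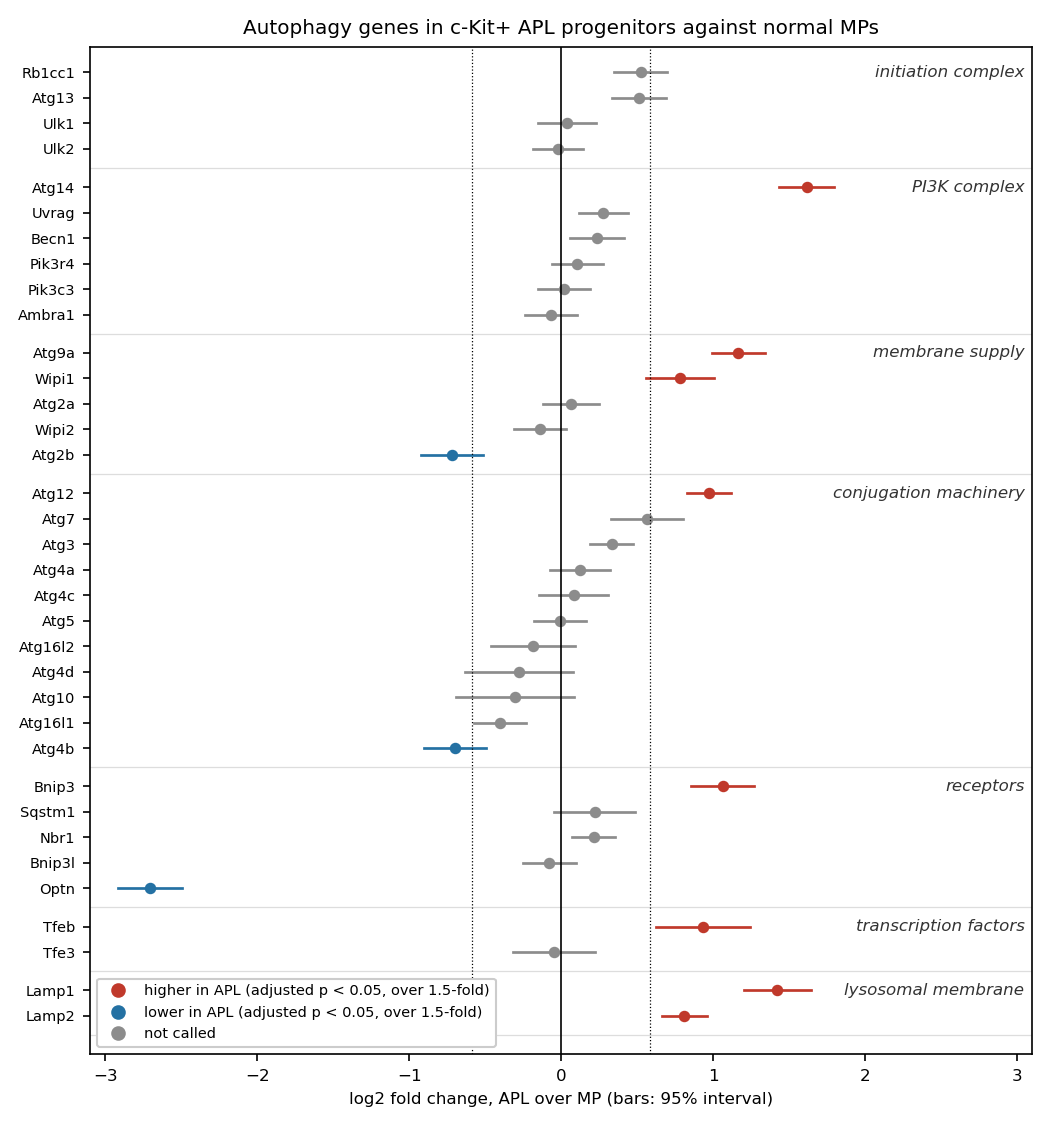
Log2 fold change of each of the 35 autophagy genes described, between APL progenitors and MPs, grouped by role, with 95% intervals from limma; dotted lines mark a fold change of 1.5. The 8 genes that rose lie in 6 of the 7 roles shown and not among the 4 initiation complex genes shown. Optn lies farthest to the left at −2.71.

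**Figure D2:**
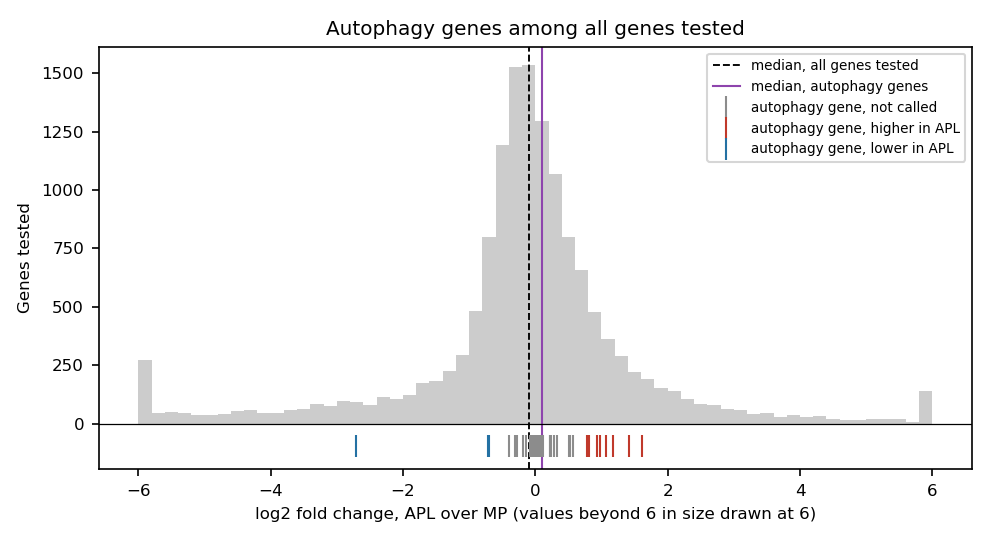
Histogram of the log2 fold changes of the 14595 genes tested, with the 35 autophagy genes as ticks below it and the median of each set as a line. The autophagy genes lie between −2.71 and 1.62, and their median of 0.11 lies to the right of the median of all genes, −0.10.

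The called genes with the largest changes were Optn, Atg14 and Lamp1. Optn encodes optineurin, a receptor that carries ubiquitin-tagged cargo and damaged mitochondria to the autophagosome. Optn had 1493, 1475 and 1641 scaled fragments in the 3 MP libraries, and 229, 221 and 254 in those of APL progenitors. Every APL value was far below every MP value, and the mean fell from 1536 ± 91.4 to 235 ± 17.4 (SD, n = 3 each; log2 fold change −2.71, SE 0.092, limma adjusted p = 4.4e-08), a 6.53-fold decrease. In FPKM the mean level was 17.8 ± 0.892 in MPs and 2.80 ± 0.183 in APL progenitors, the lowest of the 35 genes there. Optn lies on chromosome 2 from 5020642 to 5063938 in GRCm38, the mouse build of the table. Atg14 encodes the subunit that directs the lipid kinase complex to the site where autophagosomes form. Atg14 had 513, 547 and 589.8 scaled fragments in the 3 MP libraries, and 1720.2, 1624 and 1716 in those of APL progenitors. All 3 APL values were above the MP values (log2 fold change 1.62, SE 0.080, limma adjusted p = 3.1e-07), a 3.07-fold increase, and the gene lies on chromosome 14 from 47540893 to 47568434. Lamp1 had 6943, 6279 and 7785 scaled fragments in the 3 MP libraries, and 17573, 19078 and 19516 in those of APL progenitors, with a log2 fold change of 1.42 (standard error 0.097, adjusted p = 2.3e-06 from limma). Lamp1 had the highest level of the 35 genes in APL progenitors, 314 ± 16.3 FPKM, against 116 ± 12.2 in MPs. It lies on chromosome 8 from 13159135 to 13175338.

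The promoters of these 3 genes, from RefSeq on GRCm38.p6, are shown because their fold changes were the largest. Each runs 5′ to 3′ on the strand of the gene from 250 bases before its RefSeq start to 50 after, and that start lies 179 bases upstream of the table's locus for Optn, 26 bases inside it for Lamp1 and at its edge for Atg14. Capitals mark CACGTG, the core of the E-box that Tfeb and Tfe3 are known to bind. The sequence is the same on both strands, so that 1 search covers both.
Optn, chr2:5064068-5064367, minus strand: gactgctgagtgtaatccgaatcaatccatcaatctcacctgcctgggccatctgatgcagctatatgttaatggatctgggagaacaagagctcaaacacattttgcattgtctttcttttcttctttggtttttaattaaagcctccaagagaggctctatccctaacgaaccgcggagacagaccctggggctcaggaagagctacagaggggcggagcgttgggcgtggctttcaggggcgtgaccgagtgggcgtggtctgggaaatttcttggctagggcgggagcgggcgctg
Atg14, chr14:47568385-47568684, minus strand: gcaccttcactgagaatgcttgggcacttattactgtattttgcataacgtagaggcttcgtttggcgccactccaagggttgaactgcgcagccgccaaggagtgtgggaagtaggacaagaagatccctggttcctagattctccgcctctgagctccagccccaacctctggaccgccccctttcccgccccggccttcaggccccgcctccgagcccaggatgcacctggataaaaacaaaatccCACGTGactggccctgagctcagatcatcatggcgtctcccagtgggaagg
Lamp1, chr8:13158911-13159210, plus strand: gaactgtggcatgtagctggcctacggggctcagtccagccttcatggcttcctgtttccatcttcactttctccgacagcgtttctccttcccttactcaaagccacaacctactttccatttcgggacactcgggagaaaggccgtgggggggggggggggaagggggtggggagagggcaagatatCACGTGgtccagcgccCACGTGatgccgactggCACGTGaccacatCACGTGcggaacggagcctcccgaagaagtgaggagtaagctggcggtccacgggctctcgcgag
The Lamp1 promoter held CACGTG at 4 places, beginning 61, 45, 28 and 15 bases before the start. Only 8 of the 32851 promoters of the table (0.0244%) held as many. The Atg14 promoter held it once, with its first base 1 base before the start, and the Optn window did not hold these letters. A promoter was given for 29 of the 35 genes, and 6 of the 29 (20.7%) held the motif, against 8.09% of all genes with a promoter and 7.15% of all promoters. The 6 were Lamp1, Atg14 and Bnip3, which rose, Atg7 and Atg3, which were higher at an adjusted p under 0.05 but by 1.5-fold or less, and Atg5, with a log2 fold change of −0.0047. All genes with a promoter include genes that were not tested here, and the share over the tested genes alone was not computed. The motif was chosen after the values were seen, and a match describes the sequence, not a bound site.

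None of the 4 described genes of the initiation complex met both thresholds in limma's test. Atg101, a further subunit of the complex given below, did. At an unadjusted p under 0.05, 2 of the 4 were higher and 0 lower, against 30.9% and 38.8% of all genes. Ulk1 and Ulk2, the kinases that start autophagy, had log2 fold changes of 0.041 (95% interval −0.15 to 0.23) and −0.018 (−0.18 to 0.15), and the libraries of the groups overlapped for both. Ulk1 had 1299.9, 1371 and 1483 scaled fragments in MPs and 1363, 1551 and 1363 in APL progenitors. Atg13, the adaptor of the complex, had 1001, 1053 and 1134 scaled fragments in MPs and 1452, 1614 and 1486 in APL progenitors, and Rb1cc1, its scaffold also named FIP200, had 1412, 1534 and 1326 in MPs and 2143, 2018 and 1972 in APL progenitors. The groups were separate for both genes. Their log2 fold changes of 0.51 and 0.52 had adjusted p-values of 4.0e-04 and 3.2e-04 from limma but lay below the log2 threshold of 0.58. The differences between the kinases and their partners were not tested.

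In the lipid kinase complex, Atg14 was the called gene among 6. Pik3c3, the catalytic subunit, and Pik3r4, its regulatory subunit, had log2 fold changes of 0.020 (95% interval −0.15 to 0.19) and 0.11 (−0.062 to 0.27). Becn1, the core subunit and the most highly expressed gene of the complex, had 53.8 ± 3.56 FPKM in MPs and 63.8 ± 2.23 in APL progenitors (SD, n = 3 each; log2 fold change 0.24, adjusted p = 0.024 from limma). Its fragments may be shared with Cntd1, which has the same locus in the table. Uvrag takes the place of Atg14 in a complex that acts later, at the endosome. It had 1403, 1357 and 1460.1 scaled fragments in MPs and 1723, 1790.1 and 1608 in APL progenitors, a log2 fold change of 0.28 against the 1.62 of Atg14. Of the 2 subunits that exclude each other, Atg14 thus had fewer FPKM than Uvrag in MPs (5.84 ± 0.383 against 14.1 ± 0.398), and in APL progenitors the levels were 17.9 ± 0.605 and 17.2 ± 0.886. Ambra1, a regulator of Becn1, had a log2 fold change of −0.066 and overlapping libraries.

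The genes of membrane supply moved in both directions. Atg9a encodes the membrane protein whose vesicles seed the autophagosome. Atg9a had 893, 857 and 966 scaled fragments in the 3 MP libraries, and 1919, 2139 and 2044 in those of APL progenitors, without overlap (log2 fold change 1.17, SE 0.078, limma adjusted p = 1.9e-06). Wipi1, a reader of the lipid made by Pik3c3, went from 367, 323 and 371 scaled fragments to 639, 569.6 and 616 (log2 fold change 0.78, SE 0.099, limma adjusted p = 1.2e-04). Its relative Wipi2, which recruits Atg16l1, had a higher level in MPs (15.9 ± 0.685 against 6.99 ± 0.389 FPKM) and did not pass the test (log2 fold change −0.14, 95% interval −0.31 to 0.035). Atg2a and Atg2b encode lipid transfer proteins that feed the growing membrane. Atg2b had 3204, 3287 and 2724 scaled fragments in the 3 MP libraries, and 1990.0, 1833 and 1774 in those of APL progenitors, and it fell in APL progenitors (log2 fold change −0.72, SE 0.089, limma adjusted p = 1.1e-04). Atg2a had a log2 fold change of 0.065 (95% interval −0.12 to 0.25). The 95% intervals of the log2 fold changes of Atg2a and Atg2b did not meet.

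Of the 11 genes of the conjugation machinery, 1 rose, 1 fell and 9 were not called. Atg12 is the ubiquitin-like protein that is joined to Atg5 and, with Atg16l1, acts as the ligase of the machinery. Atg12 had 1539.7, 1506 and 1545 scaled fragments in the 3 MP libraries, and 3024, 2889 and 3102 in those of APL progenitors, and the groups were far apart (log2 fold change 0.97, SE 0.063, limma adjusted p = 1.7e-06). At 45.7 ± 1.35 FPKM it was the most highly expressed gene of the machinery in APL progenitors, and in MPs its 23.6 ± 0.418 FPKM were just below the 24.2 ± 0.244 of Atg3. Its partner Atg5 had 1077, 1093 and 1149.9 scaled fragments in MPs and 1132, 1032 and 1147 in APL progenitors, which overlapped. Atg16l1 was lower in all 3 APL libraries, at 904, 906 and 911 against 1155, 1159 and 1287 scaled fragments, with a log2 fold change of −0.40 (adjusted p = 0.0012 from limma) that lay within the fold threshold. The 3 parts of the Atg12-Atg5-Atg16l1 complex thus had log2 fold changes of 0.97, −0.0047 and −0.40. Atg16l1 shares its locus in the table with Scarna6, a small RNA gene.

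Atg7, the activating enzyme of both conjugation systems, had 784, 772 and 951 scaled fragments in MPs and 1129, 1333 and 1238 in APL progenitors. Its log2 fold change of 0.56 (adjusted p = 0.0012 from limma) was just under the threshold, and it was 0.66 without MP library 3. Atg3, a conjugating enzyme of the system that works on lipid, had a log2 fold change of 0.33 (adjusted p = 0.0013 from limma) with non-overlapping groups. Atg10, which transfers Atg12 to Atg5, had −0.30 (95% interval −0.69 to 0.086). Its groups did not overlap either, at 152 to 173 scaled fragments in APL progenitors and 175 to 255 in MPs. MP library 3 was highest, by 0.52 on the log2 scale over the mean of MP libraries 1 and 2. Atg4 proteases prepare the substrates of conjugation and later release them from the membrane. Atg4b had 1626, 1534 and 1782 scaled fragments in the 3 MP libraries, and 986, 1112 and 948 in those of APL progenitors, and it fell (log2 fold change −0.70, SE 0.090, limma adjusted p = 1.3e-04). It remained above its relatives Atg4c and Atg4d in level, with 12.7 ± 0.995 FPKM against 5.80 ± 0.484 and 5.19 ± 0.507 in APL progenitors. Atg4c had a log2 fold change of 0.083 and Atg4d of −0.28 (adjusted p = 0.48 and 0.14 from limma). Fragments of Atg4d may be divided with Kri1, which has the same locus. The entry named Atg4a has the identifier of that gene, which RefSeq places on chromosome X, but its locus is on chromosome 3 from 103643953 to 103646068, which is that of the pseudogene Atg4a-ps. Its log2 fold change of 0.12 therefore cannot be assigned to the gene or to the pseudogene. Atg16l2, a relative of Atg16l1, had a log2 fold change of −0.18 and few fragments (266 ± 15.8 in MPs).

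Among the receptors, Optn fell, Bnip3 rose and the other 3 genes were not called. Bnip3 encodes a mitochondrial receptor that is induced by low oxygen. Bnip3 had 416, 387 and 427 scaled fragments in the 3 MP libraries, and 851, 798 and 927 in those of APL progenitors (log2 fold change 1.06, SE 0.092, limma adjusted p = 1.0e-05). Its relative Bnip3l, also called Nix, was expressed at a higher level (47.9 ± 4.53 FPKM in MPs and 44.5 ± 0.330 in APL progenitors) and had a log2 fold change of −0.076 (95% interval −0.25 to 0.097). The individual values of Bnip3l, 4043, 4034 and 4632 against 3907, 3993 and 4131 scaled fragments, overlapped. RefSeq lists a pseudogene of Bnip3l on chromosome 12. Sqstm1, the receptor p62, had 2108, 2157 and 2723 scaled fragments in MPs and 2398, 2943 and 2777 in APL progenitors, which overlapped (log2 fold change 0.22, adjusted p = 0.12 from limma). Nbr1, which acts together with Sqstm1, had a log2 fold change of 0.22 (adjusted p = 0.014 from limma), with every APL value above every MP value but a fold change of 1.16. In MPs the level of Optn, 17.8 ± 0.892 FPKM, was close to the 16.6 ± 0.521 of Nbr1, whereas in APL progenitors Nbr1 stood at 19.5 ± 0.649 and Optn at 2.80 ± 0.183 FPKM.

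Of Tfeb and Tfe3, relatives that bind the same motif, Tfeb rose and Tfe3 did not pass the test. Tfeb had 253, 238 and 310.2 scaled fragments in the 3 MP libraries, and 456, 574 and 497 in those of APL progenitors, without overlap (log2 fold change 0.93, SE 0.14, limma adjusted p = 2.9e-04). Tfe3 had 782, 737 and 936 scaled fragments in MPs and 692, 872 and 812 in APL progenitors, with overlap (log2 fold change −0.046, 95% interval −0.32 to 0.23). In FPKM, Tfeb was below Tfe3 in MPs (4.43 ± 0.425 against 9.53 ± 1.09), and in APL progenitors they stood at 8.60 ± 0.986 and 9.55 ± 1.05, within the spread of the libraries. Both lysosomal membrane genes rose. Lamp2, one of whose forms takes in single proteins in chaperone-mediated autophagy, had 4258, 4295 and 4231 scaled fragments in MPs and 7136, 7576 and 7747 in APL progenitors (log2 fold change 0.81, SE 0.066, limma adjusted p = 6.9e-06). The log2 fold change of Lamp1 was the larger, 1.42 against 0.81, and their 95% intervals, 1.20 to 1.64 and 0.66 to 0.96, did not overlap.

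**Figure D3:**
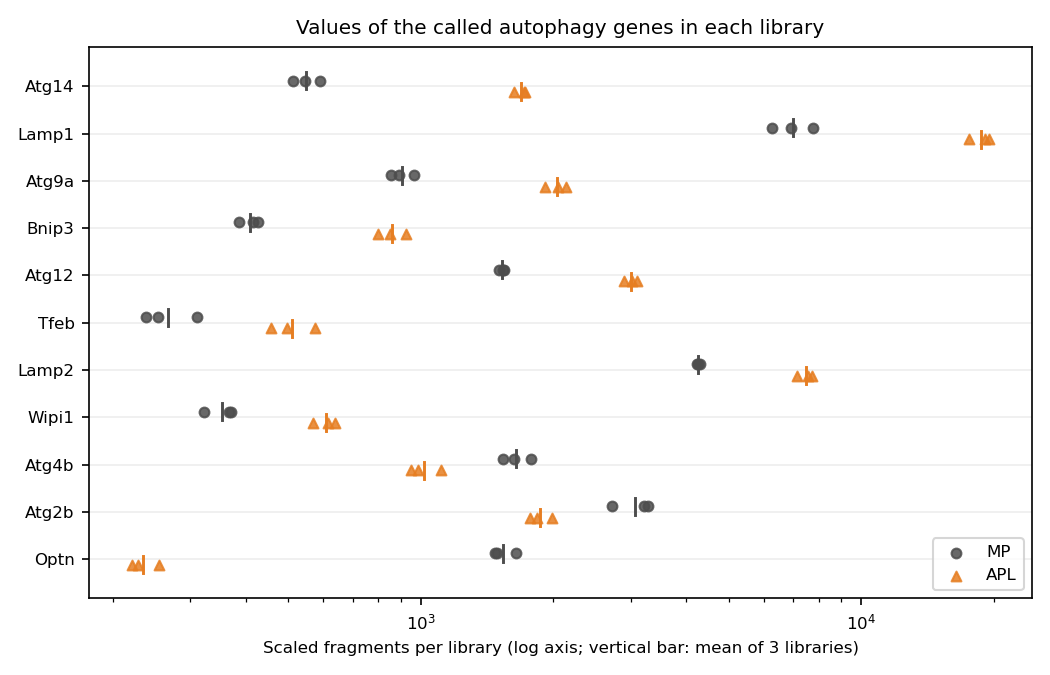
Scaled fragments of the 11 called autophagy genes in each library on a log axis, circles for MPs and triangles for APL progenitors, with the mean of each group as a vertical bar. No gene has overlapping groups, and the values run from 221 for Optn to 19516 for Lamp1.

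The 35 genes differed widely in level. Mean FPKM in MPs ranged from 4.43 for Tfeb to 116 for Lamp1, with a median of 10.5, and in APL progenitors from 2.80 for Optn to 314 for Lamp1, with a median of 12.4. Over all genes tested the medians were 6.99 and 7.04 FPKM. Lamp1 was followed in MPs by Lamp2 and Becn1, at 54.2 ± 1.43 and 53.8 ± 3.56 FPKM, whose order was within their spread (SD, n = 3 each). In APL progenitors Lamp2 had 91.5 ± 1.64 and Becn1 63.8 ± 2.23 FPKM. Of the 24 genes not called, 8 passed the adjusted p with a fold change of 1.5 or less, 7 of them higher (Rb1cc1, Atg13, Atg7, Atg3, Uvrag, Becn1 and Nbr1) and 1 lower (Atg16l1). At the adjusted p alone 42.9% of the 35 genes were higher and 11.4% lower, against 29.7% and 37.3% of all genes, of which 67% passed in either direction. These counts moved with the scaling: with equal totals and with voom, both by library totals, 12 of the 35 were higher and 10 lower. These stood in place of 15 and 4. Among all genes 26% were then higher in both, and 44.4% and 44.7% lower. Becn1 and Uvrag were among the genes that no longer passed with equal totals (adjusted p = 0.15 and 0.12 from limma) or with voom (0.16 and 0.12). Becn1 also did not pass with quantile normalization (adjusted p = 0.08 from limma). The same held for Becn1 without MP library 1 or 2, or without APL library 2 or 3 (0.077 to 0.096). The 16 genes past neither threshold had log2 fold changes between −0.30 and 0.22, with 95% bounds between −0.69 and 0.49.

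A further 84 genes of the pathway, listed by role, were measured in the same fit, and 23 rose (27.4%) and 14 fell (16.7%), against the 21.7% and 24.4% of all genes. Their median log2 fold change was 0.18. In the initiation complex its subunit Atg101, which stabilizes Atg13, rose from 648 ± 28.3 to 1628 ± 169 scaled fragments (SD, n = 3 each; log2 fold change 1.32, SE 0.091, limma adjusted p = 2.3e-06). In membrane supply 1 of 5 genes rose, the Wipi relative Wdr45 (log2 fold change 0.87). Of 3 further genes around the lipid kinase complex, Sh3glb1, a membrane-bending partner of Uvrag, fell (−0.94) and the other 2 were not called. Of 16 further receptors, 6 rose and 4 fell. Ccpg1, a receptor for the endoplasmic reticulum, went from 1342 ± 43.9 to 4796 ± 169 scaled fragments (a log2 fold change of 1.84). Retreg1, another receptor for that compartment, which the table lists as Fam134b, went from 609.7, 628 and 619.6 scaled fragments in MPs to 22.4, 21.7 and 9.87 in APL progenitors (log2 fold change −5.11, adjusted p = 6.4e-07 from limma), a larger decrease than that of any of the 35 genes.

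Of 14 genes that act in fusion with lysosomes, 2 rose and 1 fell. Plekhm1, an adaptor between autophagosomes and lysosomes, rose (log2 fold change 1.16), and Stx17, the fusion protein of the autophagosome, fell (−0.70). Of 16 genes of nutrient and energy sensing, 0 rose and 2 fell in limma's test, Prkab1, a subunit of the kinase AMPK, by the most (−0.88). At an unadjusted p under 0.05, 3 of the 16 were higher (18.8%) and 7 lower (43.8%), against 30.9% and 38.8% of all genes. All 5 further transcription factors were called, 3 higher and 2 lower. Tfec, a relative of Tfeb, had 1205, 1115 and 1052 scaled fragments in MPs and 5873, 5959.9 and 6165 in APL progenitors (log2 fold change 2.42, adjusted p = 2.3e-08 from limma). Foxo1, a factor that activates autophagy genes in starved cells, fell to 51.4 ± 11.1 from 236 ± 29.2 scaled fragments (−2.19). Of 23 lysosomal enzymes and membrane proteins, 10 rose and 4 fell. Grn, the precursor of the lysosomal granulins, led the increases (2.50), and the protease gene Lgmn the decreases (−2.12), with at most 63.1 scaled fragments in any library. At an unadjusted p under 0.05, 56.5% of these 23 were higher and 17.4% lower. The fusion genes stood at 57.1% and 14.3% and the 16 further receptors at 68.8% and 31.2%, against the same 30.9% and 38.8% of all genes. The list of 84 genes was drawn up with earlier results of these data known, and its counts describe it without a test of the list.

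**Figure D4:**
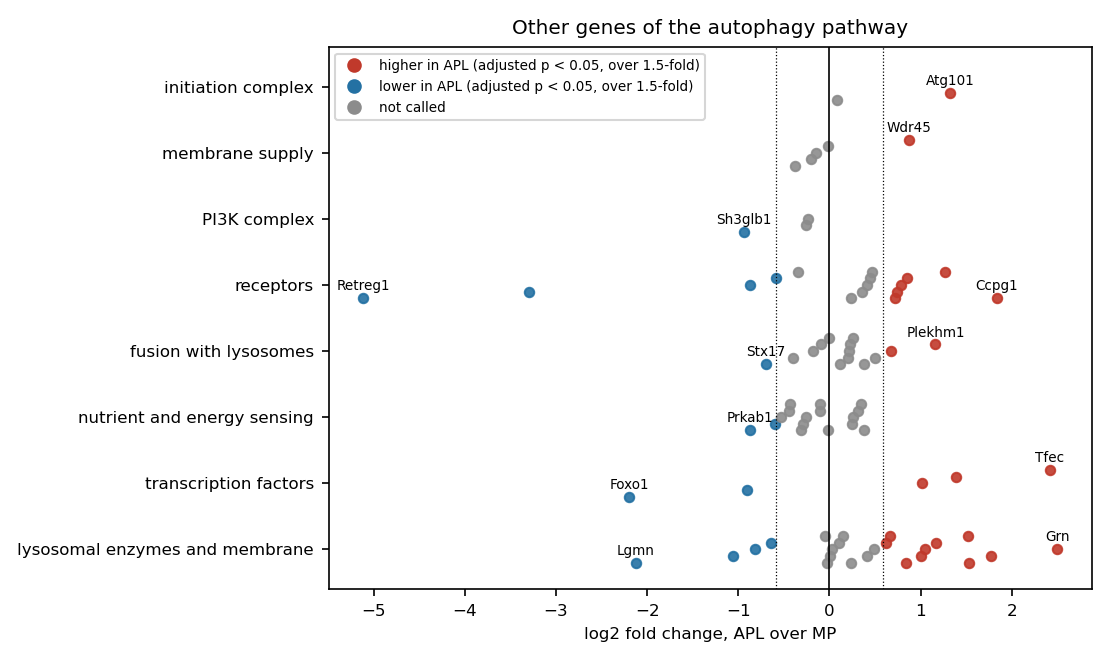
Log2 fold change between APL progenitors and MPs of the 84 further genes of the autophagy pathway, 1 point per gene in rows by role, with the largest called change in each direction named. The points run from −5.11 for Retreg1 to 2.50 for Grn. The rows of nutrient and energy sensing and of the lipid kinase (PI3K) complex hold no gene called higher.

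Markers of other cell types also differed between the groups. Of the erythroid markers, 6 of 7 tested were lower in APL progenitors, and the 9 measured summed to between 14255 and 15713 scaled fragments in MPs and between 124 and 217 in APL progenitors. Megakaryocyte markers were lower for 5 of 6 (sums of 2919 to 3914 against 225 to 309). Early granulocytic markers were higher for 4 of 6, with sums of 309900 to 346354 against 779234 to 932437. Late granulocytic markers went both ways, 2 higher and 2 lower of 7. Their sums, 66272 to 121003 against 211981 to 219396, were carried by S100a8 and S100a9, and without these they were 24361 to 48462 in MPs and 18128 to 21415 in APL progenitors. Of 6 monocytic markers 2 were higher and 3 lower. Their sums, 15310 to 19070.1 against 148796 to 159460, rested on Ly6c2, without which they were 4587 to 5765 and 1984 to 2059.7. Of 4 lymphoid markers tested, 2 were lower, and Cd3e was at 0 in all but 1 library. Nkg7 made up nearly all of the lymphoid sums of 3396 to 3658 against 3363 to 3829, which were 48.6 to 69.4 and 14.8 to 28.6 without it. The markers of the sort differed as well. Kit fell from between 10442 and 10970.1 scaled fragments in MPs to between 5780.2 and 6033 in APL progenitors (log2 fold change −0.85, limma adjusted p = 5.9e-06), and Cd34 fell by 6.31 on the log2 scale (adjusted p = 5.6e-09). Fcgr3 rose by 1.89 (adjusted p = 1.2e-06). Ly6a, which encodes Sca-1, was higher as well (log2 fold change 0.68, limma adjusted p = 0.043) but had at most 48.8 scaled fragments in any library. The part of these cell types in the changes of autophagy genes was not tested, and in bulk samples fewer cells of a type and less RNA per cell cannot be told apart.

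Lamp1 lies on chromosome 8, where the 778 tested genes had a median of 0.48 on the log2 fold change scale against −0.13 for all other genes. The log2 fold change of Lamp1 was 1.42 (95% interval 1.20 to 1.64), and the part of the chromosome in its change was not tested. None of the 35 genes lies on chromosome 15, whose median was 0.46. Of the further genes named above, Atg101 and Retreg1 lie there, with log2 fold changes of 1.32 and −5.11. The part of that chromosome in their changes was not tested.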

How the data were processed

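RNA of 3 normal MP and 3 c-Kit+ APL libraries was sequenced from TruSeq preparations. The submitters' processing notes name CASAVA 1.8, TopHat2 2.0.6 and mm10, whereas the paper's methods name STAR, mm9, HTSeq-count and DESeq2. The tool that made the table is not given in the sources used here. The table that the authors deposited holds, for each gene in each library, FPKM and an estimate of its fragments. The deposited fragments are a signal scaled by a factor of each library: 86.5% to 88.1% of low nonzero values were whole multiples of 1 step within 0.01 of a step, so count tests were not used. Starts were raised by 1 to count from 1.

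limma 3.58.1 in R 4.3.3 (lmFit, eBayes with a trend) was run on log2(scaled fragments + 1) for the 14595 genes at 1 or more in 3 or more libraries. This scale understates the changes of low genes. Exact permutation tests were run on single genes. The fit was tested on simulated data. Alternatives were the filter, the pseudocount, quantile, same-total and median ratio scaling, voom, log2(FPKM + 0.1), blocking on library number, the fold threshold and each library left out. Same-group libraries differed by more than counting noise, so none was a copy.

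The members, the lists and the tests were chosen with earlier results of these data known. All members were to be accounted for, those called with every value and the most expressed of each role by name. The results of 5 members are not reported here, and counts are over the other 35. Of the further pathway genes, the largest called change per role and direction was named. Other members were named after their values were seen. Symbols of 5 further genes were older ones in the table. Promoters came from RefSeq for 29 members. matplotlib 3.10.9 (Python 3.11.15) drew the figures.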

Additional observations from a re-analysis of the deposited data

How the results depend on the processing

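Of the 35 members described, 24 kept their direction and their call under all 16 alternatives for single genes, the 11 called members among them. With a library left out, 8 to 9 members were higher and 3 lower, and of the further pathway genes 22 to 24 were higher and 10 to 14 lower. Among the 14068 to 14199 genes then tested, 2734 to 3256 were higher and 2913 to 3507 lower. At a fold change over 2, 4 members were higher and 1 lower, and 14 and 5 of the further genes. The share of all genes at that threshold was not computed, so these counts have no background. With no fold threshold these were 15 members higher, and 38 and 24 further genes (45.2% and 28.6%). Among all genes 29.7% were then higher and 37.3% lower. In a check chosen after seeing the data, with no fold threshold 10 members were lower with the same total and 10 with voom, in place of 4. Scaling by totals, alone or within voom, shifted the median over all genes by −0.13 on the log2 scale. It moved that of the members from 0.11 to −0.025 (alone) and −0.024 (voom). The excess of the members' median over that of all genes was 0.21, and 0.13 with quantile normalization, the lowest of all settings. With the replicate block, 8 members were higher and 3 lower, and no call of a member changed; same-numbered libraries had correlations of deviations of 0.13, −0.0016 and 0.13, so the numbers were not taken to pair them.

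The direction of 9 uncalled members changed with the setting. With the same total, log2 fold changes were −0.089 (Ulk1), −0.11 (Pik3c3), −0.025 (Pik3r4), −0.066 (Atg2a), −0.0075 (Atg4a) and −0.047 (Atg4c). With voom they were −0.090, −0.11, −0.024, −0.066, −0.0083 and −0.047. With median ratio scaling they were 0.045 (Ulk2), 0.058 (Atg5) and 0.016 (Tfe3). Pik3c3 had −0.0064 with quantile normalization and Tfe3 0.0028 with FPKM. With a library left out, Ulk1 ranged from −0.021 to 0.092, Ulk2 from −0.048 to 0.020, Pik3c3 from −0.013 to 0.067, Atg5 from −0.033 to 0.043 and Tfe3 from −0.12 to 0.054. Atg7 passed the fold threshold with median ratio scaling (0.63), without MP library 3 (0.66) and without APL library 1 (0.63), and Rb1cc1 with median ratio scaling (0.59). The cause of these changes was not tested.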
